A study of Schmidtea mediterranea with 96 samples.

Results

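The comparison set the 4 libraries of regenerating planarian fragments collected 72 hr after amputation against the 4 collected 48 hr after amputation. These 8 libraries were 8 of the 68 of a regeneration time course and 8 of 96 libraries in all. They were chosen by their labels alone, and every transcript of the table entered the comparison, 36035 in all. The organism was the freshwater flatworm Schmidtea mediterranea, and all 8 libraries were labelled Wild-type and amputated, with no other agent. Small pieces were cut from one side of worms starved for at least 7 days, left to regenerate, and collected whole. The protocols name an asexual strain, CIW4, and a sexual one, S2F8, and do not say which strain gave which library. They describe libraries of whole animals as made from the RNA of 5 worms, and nothing in the labels ties the 4 libraries of a time to separate cultures. The p-values therefore measure only the spread between libraries, which may be technical. Those for single transcripts take this spread from all 68 time-course libraries, as if equal at every time, unless another fit is named. The 48 hr libraries carried the replicate numbers 1, 2, 4 and 5, and the 72 hr libraries 1, 2, 3 and 5.

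Planarians rebuild missing parts from neoblasts, dividing cells spread through the body that carry the Argonaute protein PIWI-1. After a cut the wound closes, neoblasts gather and divide near it, and an unpigmented bud of new tissue, the blastema, grows while the older tissue is remodelled. The days between wound closure and a visible blastema are the time when daughter cells of neoblasts leave the cycle and take on their fates. In cytometry of planarian cells stained for DNA, the gate X1 holds dividing neoblasts, X2 holds smaller neoblasts and their early daughters, and Xins holds differentiated cells that survive irradiation. The identifiers of the transcripts were not paired with gene names in the files used here. No marker gene could therefore be looked up, and the transcripts are described by their levels and by the cells that held them.

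Each value was FPKM, the reads of a transcript scaled to its length and to the reads of the library. Read totals recovered from the FPKM values lay between 9.54 M and 18.1 M reads in the 8 libraries, and averaged 14.4 ± 3.68 M at 48 hr and 13.8 ± 2.07 M at 72 hr (SD, n = 4 each, two-sided exact permutation p = 0.771). The number of transcripts at 1 FPKM or more was 18952 ± 673 at 48 hr and 19193 ± 726 at 72 hr (SD, n = 4 each, exact permutation p = 0.629). The same transcript was the most abundant in all 8 libraries and held 15.9 ± 1.85% of the FPKM at 48 hr and 18.9 ± 0.798% at 72 hr (SD, n = 4 each, exact permutation p = 0.0571). The smallest p that 4 libraries against 4 allow is 0.0286, and none of the 3 measures reached it.

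One library stood apart from the others of its time. In 48 hr replicate 5, 41 transcripts lay at least 2 log2 units above all of the other 3 libraries at 48 hr, and 69 lay at least 2 log2 units below all of them. These 110 transcripts were the highest such count among the 68 libraries, of which the next had 66 and the median library 3.5. The count misses a time whose libraries split 2 against 2, so it does not show that replicate 5 was alone. The 60 hr replicates 1, 2, 3 and 6 had 1, 3, 7 and 2, though they stood at 2 levels in the sets followed below. The other 7 libraries of the comparison had between 0 and 15. The results below are therefore given with all 8 libraries and again without 48 hr replicate 5. That library was left out after it was seen to stand apart, so counts and p-values without it are a description only.

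At 72 hr, 110 transcripts were higher and 123 were lower than at 48 hr, out of 24546 tested (0.448% and 0.501% called). A transcript was called where limma gave a Benjamini-Hochberg adjusted p under 0.05 over all transcripts tested and the log2 difference of FPKM plus 1 was at least 1 in size. The median difference of the transcripts called higher was 1.27 on this scale, and the range was 1.00 to 5.10. For those called lower the median was -1.48 and the range -4.64 to -1.01. The transcripts called higher had a median level of 8.36 FPKM at 48 hr and 20.9 FPKM at 72 hr, and 12 of them averaged under 1 FPKM at 48 hr. The transcripts called lower started from a higher level, with a median of 42.6 FPKM at 48 hr and 11.4 FPKM at 72 hr, and 14 of them averaged under 1 FPKM at 72 hr. Differences of any size that passed the adjusted p were more numerous and mostly upward, with 2264 higher (9.22%) and 599 lower (2.44%). The median of all transcripts tested was 0.07, and median-ratio scaling took it to 0.00 and the split to 82 higher and 147 lower.

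Without 48 hr replicate 5, 209 transcripts were called higher and 204 lower (0.851% and 0.831% called), and 2538 and 944 passed at any size (10.3% and 3.85%). Of the 110 called higher with all 8 libraries 108 were among these, and of the 123 called lower 112 were. Leaving out some of the other libraries lowered the counts: 70 were higher without 48 hr replicate 4, and the lower count was 73, 81, 67 and 80 without 48 hr replicates 1, 2 and 4 and 72 hr replicate 5. The 8 libraries fitted alone gave 45 higher and 29 lower, and the same 7 without 48 hr replicate 5 gave 220 and 210. The higher count also rose with a pseudocount of 0.1, to 325, and with limma voom on the recovered reads, to 304.

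**Figure D1:**
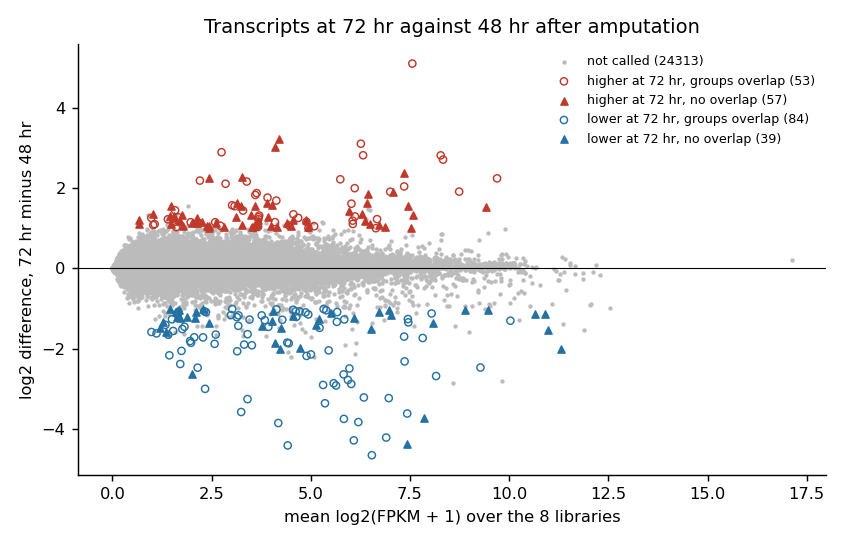
Log2 difference of each transcript between 72 hr and 48 hr (72 minus 48, y axis) against its mean log2(FPKM + 1) over the 8 libraries (x axis). Red marks the 110 transcripts called higher and blue the 123 called lower; filled triangles are those whose 4 libraries at 72 hr did not overlap the 4 at 48 hr (57 and 39), and open circles those that did.

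The 2 groups of 4 libraries did not overlap for 57 of the 110 transcripts called higher and for 39 of the 123 called lower. Over all transcripts tested, 10.2% had every 72 hr library above every 48 hr library and 2.19% had every one below. In most of the others 48 hr replicate 5 was the library that crossed: leaving it out, 107 of the 110 and 120 of the 123 did not overlap. It was the 48 hr library nearest to 72 hr in 91 of the 110 and in 102 of the 123. Its value lay inside the range of the 72 hr libraries for 42 of the transcripts called higher and 69 of those called lower, and beyond that range for 10 and 13 more. The counts on replicate 5, and those without it, rest on the values that made the calls. Their shares over all transcripts were not taken, so they are a description only.

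Among transcripts with no overlap and at least 5 FPKM at the higher time, SMED30032293 had the largest rise. It was at 6.45, 4.92, 1.98 and 8.62 FPKM in the 48 hr replicates 1, 2, 4 and 5, and at 64.9, 44.0, 71.5 and 43.8 FPKM in the 72 hr replicates 1, 2, 3 and 5. Every 72 hr library was well above every 48 hr library. The mean went from 5.49 ± 2.79 FPKM to 56.0 ± 14.3 FPKM (SD, n = 4 each), a 10.2-fold rise, with a log2 difference of 3.22 ± 0.38 (SE, limma, adjusted p = 1.71e-08). In the fragments it was still close to 0 early in the course. Its highest value in any library was 0.664 FPKM from 0 to 12 hr and 1.24 FPKM at 24 hr. In untreated whole worms of another experiment SMED30032293 was at 115 ± 9.93 FPKM (SD, n = 3). After 72 hr it averaged 50.2 ± 22.4 FPKM at 4 days, 231 ± 182 at 5 days, 115 ± 59.98 at 7 days and 222 ± 39.4 at 14 days (SD, n = 4 each). SMED30023924 came next, with 3.04, 6.89, 2.87 and 9.58 FPKM in the 48 hr libraries and 50.8, 40.3, 62.6 and 39.4 FPKM in the 72 hr libraries, in the same order. These groups were likewise far apart, and the library nearest to 72 hr was again 48 hr replicate 5. The mean went from 5.60 ± 3.24 FPKM to 48.3 ± 10.9 FPKM (SD, n = 4 each), with a log2 difference of 3.01 ± 0.38 (SE, limma, adjusted p = 8.47e-08). At 14 days it stood at 265 ± 62.8 FPKM (SD, n = 4), and in untreated whole worms at 152 ± 3.27 FPKM (SD, n = 3).

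Both transcripts were abundant in sorted Xins cells. SMED30032293 was at 989 ± 124 FPKM in sorted Xins cells, 116 ± 38.3 FPKM in X2 cells and 2.197 ± 0.904 FPKM in X1 cells (SD, n = 3 each). SMED30023924 was at 700 ± 71.4, 101 ± 16.7 and 2.65 ± 0.254 FPKM in the same 3 gates (SD, n = 3 each). In both, the X1 libraries lay below all X2 libraries and these below all Xins libraries. In the separate sort of fixed cells by PIWI-1 protein, the level did not follow that order: SMED30032293 was at 279 ± 66.1 FPKM in PIWI-1 low cells, against 25.2 ± 7.62 in PIWI-1 high and 14.03 ± 7.18 in PIWI-1 negative cells (SD, n = 4 each). SMED30023924 was at 161 ± 50.0, 16.3 ± 3.65 and 31.6 ± 15.9 FPKM in these (SD, n = 4 each). Both transcripts were thus highest in the PIWI-1 low cells of that sort, with no overlap with the other 2 populations.

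Under the same limit of no overlap, the 2 largest falls were from abundant levels. SMED30003738 was at 1867, 1090, 1371 and 135 FPKM in the 48 hr replicates 1, 2, 4 and 5, and at 34.5, 78.0, 26.0 and 26.6 FPKM in the 72 hr replicates 1, 2, 3 and 5. The groups did not overlap, but 48 hr replicate 5 was much nearer to the 72 hr libraries than to the others of its own time. The log2 difference was -4.37 ± 0.81 (SE, n = 4 each, limma, adjusted p = 0.000138), and without that library -5.21 ± 0.82 (SE, limma, adjusted p = 1e-05). SMED30022734 was at 1746, 1380, 1605 and 124 FPKM in the 48 hr libraries and at 116, 114, 38.9 and 29.5 FPKM in the 72 hr libraries. Here 48 hr replicate 5 was almost level with the highest 72 hr library. The log2 difference was -3.71 ± 1.23 (SE, n = 4 each, limma, adjusted p = 0.038), and without that library -4.63 ± 1.30 (SE, limma, adjusted p = 0.0103). The call for SMED30022734 was lost without 48 hr replicate 1, 2 or 4 or without 72 hr replicate 3 or 5, with adjusted p of 0.114, 0.096, 0.119, 0.0941 and 0.117 from limma, and the log2 difference then lay between -3.49 and -3.36. It was also lost with a pseudocount of 0.1, with no filter and with the 8 libraries alone (limma, adjusted p = 0.06, 0.0547 and 0.0519).

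These 2 transcripts rose earlier in the course and were low at its end. SMED30003738 averaged 32.2 ± 29.1 FPKM at 0 hr, 683 ± 137 at 12 hr and 1.26 ± 0.341 at 14 days (SD, n = 4 each). SMED30022734 averaged 7.78 ± 2.34, 127 ± 29.2 and 0.707 ± 0.605 FPKM at the same times (SD, n = 4 each). Both were scarce in every sorted population, with no library of the X gates above 23.3 FPKM for SMED30003738 or 16.4 FPKM for SMED30022734. In whole worms SMED30003738 was at 15.6 ± 3.13 FPKM untreated and 108 ± 30.7 FPKM 24 hr after irradiation, and SMED30022734 at 1.24 ± 0.207 and 3.59 ± 1.54 FPKM (SD, n = 3 each). The 60 hr libraries of both were split. SMED30003738 was at 138, 1066, 35.6 and 1293 FPKM in the 60 hr replicates 1, 2, 3 and 6, and SMED30022734 at 46.8, 1773, 4.75 and 2089 FPKM.

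**Figure D2:**
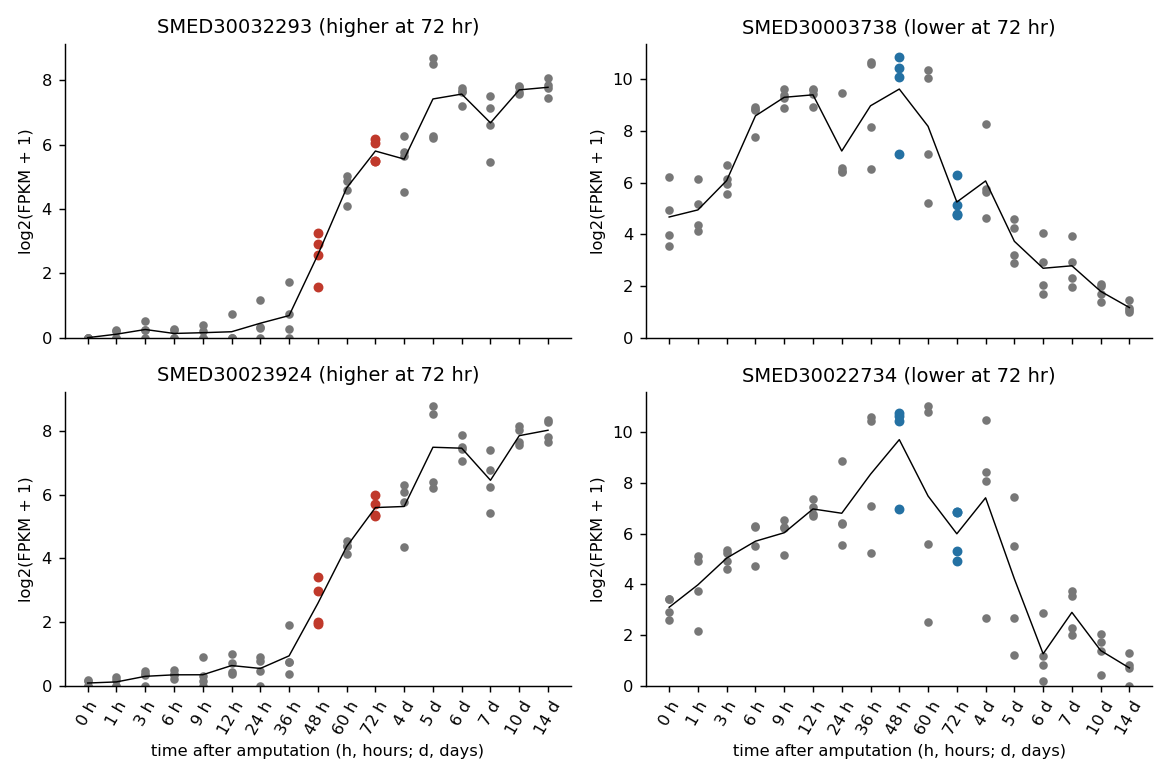
Level of the 2 transcripts with the largest rise and the 2 with the largest fall among those called with no overlap between the groups and at least 5 FPKM at the higher time, in each of the 68 libraries, as log2(FPKM + 1) on the y axis against the time after amputation on the x axis (evenly spaced, not to scale). Each point is 1 library, the line joins the means of 4, and the 48 and 72 hr libraries are coloured; SMED30032293 was at or under 0.664 FPKM from 0 to 12 hr, and SMED30003738 fell from up to 1867 FPKM at 48 hr to at most 78.0 FPKM at 72 hr.

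The p-values without 48 hr replicate 5 are a description, since leaving out a library at the 72 hr level enlarges the difference by itself. Without it, larger differences came to the front, in transcripts where that library was at the 72 hr level. The one with the largest rise by the same rule was at 15.97, 5.72 and 6.63 FPKM in 48 hr replicates 1, 2 and 4, at 1242 FPKM in replicate 5, and between 734 and 1541 FPKM at 72 hr. Its log2 difference was 6.85 ± 1.26 without replicate 5 (SE, limma, adjusted p = 0.000106) and 5.10 ± 1.30 with it (SE, limma, adjusted p = 0.00591). This transcript was not rare early in the course: it averaged 613 ± 83.9 FPKM at 0 hr (SD, n = 4). The one with the largest fall was at 1538, 1333 and 1616 FPKM in replicates 1, 2 and 4, at 13.1 FPKM in replicate 5, and between 4.81 and 44.5 FPKM at 72 hr. Its log2 difference was -6.33 ± 1.46 without replicate 5 (SE, limma, adjusted p = 0.00168) and -4.64 ± 1.45 with it (SE, limma, adjusted p = 0.027). The next in each direction had log2 differences of 4.29 ± 0.97 and -5.81 ± 1.35 without replicate 5 (SE, limma, adjusted p = 0.00133 and 0.00175), and were also called with all 8 (limma, adjusted p = 0.0276 and 0.0272). With all 8 libraries the largest rise was not called when these 8 were fitted alone (limma, adjusted p = 0.0883). The call of the largest fall was lost without 48 hr replicate 1, 2 or 4 or without 72 hr replicate 3 or 5 (limma, adjusted p = 0.101, 0.0897, 0.111, 0.0585 and 0.103), with the 8 libraries alone (0.112) and with voom (0.146). The calls of the next 2 were likewise lost without 48 hr replicate 1, 2 or 4 and without some of the 72 hr libraries, with limma adjusted p between 0.0508 and 0.129.

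The transcripts that set 48 hr replicate 5 apart were followed through the course, since their level told libraries of 1 time from each other. The 41 transcripts above had a median level of 3.61, 2.11, 2.196 and 23.4 FPKM in 48 hr replicates 1, 2, 4 and 5, and between 11.6 and 18.4 FPKM in the 72 hr libraries. The 69 below had a median of 121, 137, 145 and 10.9 FPKM at 48 hr, and between 4.81 and 20.5 FPKM at 72 hr. In both sets replicate 5 was on the 72 hr side of the other 3 libraries. The sets were chosen on the 48 hr values that also enter the calls, so their counts are a description and have no test. Of the 41, 32 had a higher mean log2 value at 72 hr and 19 were called, and 25 without replicate 5 (0.448% and 0.851% of all transcripts were called higher). Of the 69, all 69 had a lower one, 49 were called, and 65 without replicate 5 (0.501% and 0.831% of all were called lower).

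The neighbouring times showed the same unevenness in libraries that had no part in the choice. At 36 hr the median of the 41 was 23.6, 2.60, 4.43 and 27.1 FPKM in replicates 2, 3, 4 and 6, and that of the 69 was 19.1, 180.6, 163 and 7.35 FPKM. At 60 hr the 41 stood at 16.5, 2.01, 23.8 and 1.94 FPKM in replicates 1, 2, 3 and 6, and the 69 at 10.6, 205, 5.71 and 184 FPKM. Replicates 3 and 4 at 36 hr and 2 and 6 at 60 hr were thus close to 48 hr replicates 1, 2 and 4 in both sets, and the other libraries of those times close to the 72 hr libraries. At 24 hr the median of the 69 was 71.5 FPKM in replicate 6 and at most 13.2 FPKM in the other 3, and at 4 days it was 61.2 FPKM in replicate 6 and at most 21.4 FPKM in the other 3. At 14 days all 4 libraries had the 69 at 1.44 FPKM or less. In other experiments the 41 had a median between 143 and 157 FPKM in untreated whole worms and much lower medians in every sorted population. These were between 2.50 and 2.93 FPKM in X1, 17.8 and 23.2 FPKM in X2 and 14.9 and 25.2 FPKM in Xins cells, and at most 13.4 FPKM in the PIWI-1 sort. The 69 had a median between 4.88 and 5.33 FPKM in untreated worms and at most 4.28 FPKM in any library of the X gates. In whole fragments, more cells of a type and more RNA per cell cannot be told apart, and the labels give no batch, date or body region that could be set against these levels.

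**Figure D3:**
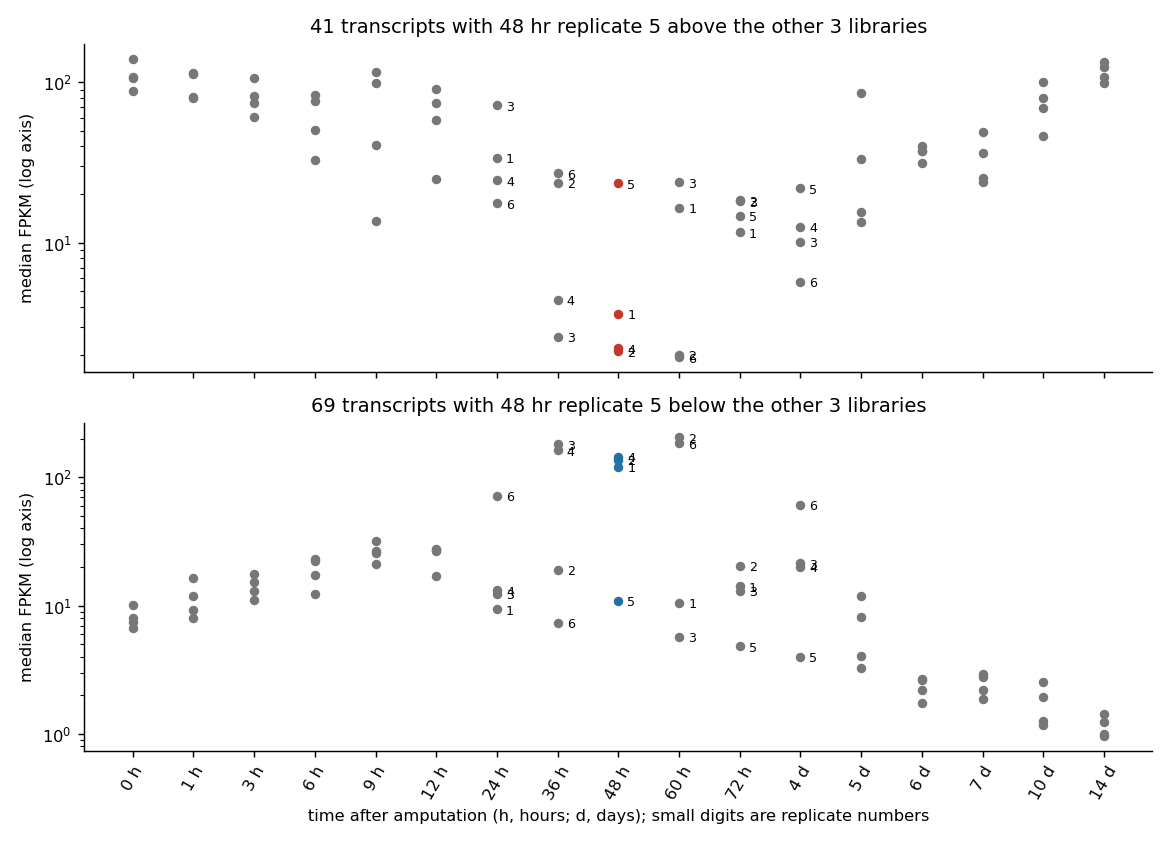
Median FPKM (log y axis) of the 41 transcripts in which 48 hr replicate 5 lay above the other 3 libraries of its time (upper panel) and of the 69 in which it lay below them (lower panel), in each of the 68 libraries by time after amputation (x axis, evenly spaced). Small digits are the replicate numbers from 24 hr to 4 days; at 36 and 60 hr the 4 libraries of a time lie at 2 levels, as at 48 hr, where replicate 5 had 23.4 and 10.9 FPKM.

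As a share of all FPKM in a library, the transcripts called higher took 0.309, 0.225, 0.302 and 1.47% in 48 hr replicates 1, 2, 4 and 5, and between 1.30 and 1.84% at 72 hr. The transcripts called lower took 5.14, 4.54, 5.58 and 1.99% at 48 hr and between 0.826 and 1.61% at 72 hr. These shares describe the sets that the comparison itself chose. The other 3 libraries at 48 hr were far from the 72 hr libraries, and replicate 5 was close to them.

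Neoblast transcripts differed by small amounts between the times, mostly upward, and their library levels overlapped when centred on all transcripts. The X1 list held 655 tested transcripts that were called higher in X1 than in both X2 and Xins cells, and its median difference was 0.14, beside 0.07 for all transcripts tested. Of these 655, 0 were called higher and 1 lower by limma at the size threshold. At an unadjusted p under 0.05 by limma and any size there were 148 higher and 6 lower, beside 4645 and 1482 of all 24546 tested. Limma voom on the recovered reads called 3 higher and 0 lower. The difference was above 0 in 84.7% of the X1 list, beside 62.7% of all transcripts tested. Differences of any size that passed the adjusted p were upward in 42 (6.41%, beside 9.22% of all transcripts). The 358 transcripts of the PIWI-1 high list had a median of 0.13 with 0 called higher and 1 lower (69 and 3 at an unadjusted p under 0.05 by limma, and 1 and 0 called with voom). The 341 transcripts lowered by irradiation had a median of 0.11 with 0 called higher and 2 lower (77 and 5 at an unadjusted p under 0.05 by limma, and 0 and 2 called with voom). Members above 0 made up 84.9% of the PIWI-1 high list and 85.0% of the irradiation-lowered list. These shares are over transcripts, not libraries. Centred on the median of all transcripts, the X1 list stood at -0.06, 0.04, -0.13 and 0.02 log2 units in the 48 hr replicates 1, 2, 4 and 5. In the 72 hr replicates 1, 2, 3 and 5 it stood at -0.02, 0.01, 0.10 and 0.06, so the groups overlapped. They also overlapped for the PIWI-1 high and irradiation-lowered lists.

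Transcripts of differentiated cells passed the adjusted p in both directions at larger shares than all transcripts, mostly upward and by small amounts. Of the 2664 tested members of the Xins list 27 were called higher (1.01%) and 23 lower (0.863%), beside 0.448% and 0.501% of all. At any size 534 (20.0%) passed upward and 114 (4.28%) downward, beside 9.22% and 2.44% of all. Of the 2846 members of the PIWI-1 negative list 41 were called higher (1.44%) and 25 lower (0.878%), and at any size 623 (21.9%) passed upward and 98 (3.44%) downward. Their medians were 0.12 and 0.16. Without 48 hr replicate 5 the called counts were 47 and 32 for the Xins list and 71 and 38 for the PIWI-1 negative list. At any size 7.13% and 5.55% of these lists then passed downward, beside 3.85% of all.

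The X2 list was the one with a median well below 0. Its 161 tested transcripts, called higher in X2 than in both other gates, had a median difference of -0.77, with 15 called lower (9.32%) and 8 higher (4.97%), beside 0.501% and 0.448% of all. Centred on the median of all transcripts, the list stood at -0.18, 0.41, 0.10 and 0.82 log2 units in the 48 hr replicates 1, 2, 4 and 5 and at -0.15, -0.17, -0.08 and -0.55 in the 72 hr replicates 1, 2, 3 and 5. The groups overlapped, since 48 hr replicate 1 lay within the 72 hr range. Without 48 hr replicate 5 the median was -0.35, with 9 called lower (5.59%) and 12 higher (7.45%), beside 0.831% and 0.851% of all. The list had stood far higher at the start of the course, between 2.01 and 2.47 log2 units in the 0 hr libraries.

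The 2 remaining lists gave few calls in number, each a larger share than that of all transcripts. The 172 transcripts of the PIWI-1 low list had a median of 0.00, with 2 called higher (1.16%) and 5 lower (2.91%), beside 0.448% and 0.501% of all. The 32 transcripts raised by irradiation had a median of -0.18, with 2 called higher (6.25%) and 3 lower (9.38%), and 4 and 4 without 48 hr replicate 5. With median-ratio scaling the X1 list had a median of 0.07, the Xins list 0.05 and the PIWI-1 low list -0.07.

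**Figure D4:**
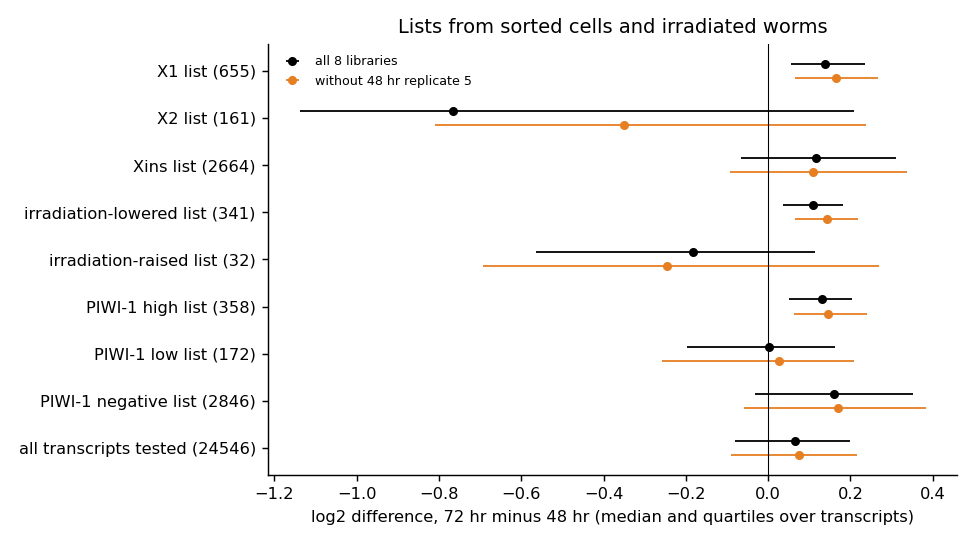
Median log2 difference between 72 hr and 48 hr (72 minus 48, x axis) of the transcripts of each list from the sorted cells and the irradiated worms, with the number tested in brackets; bars run from the lower to the upper quartile over transcripts and are not errors over libraries. Black is all 8 libraries and orange leaves out 48 hr replicate 5; the X2 list went from -0.77 to -0.35, and the median of all transcripts was 0.07 in both.

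Read the other way, both the transcripts that rose and those that fell were mostly low in dividing neoblasts. Of the 110 called higher 83 were measured in the X gates, and 69 of these (83.1%) were lower in X1 than in Xins cells and 0 were higher (1 higher at an unadjusted p under 0.05 by limma). Of the 123 called lower 81 were measured, and 63 (77.8%) were lower in X1 and 1 higher. Over all transcripts measured in both, 40.4% were lower and 7.95% higher in X1. In the PIWI-1 sort, 55 of 78 transcripts called higher (70.5%) and 45 of 71 called lower (63.4%) were lower in PIWI-1 high than in PIWI-1 negative cells, beside 27.9% of all, and 6 (7.69%) and 7 (9.86%) were higher, beside 19.5% of all. PIWI-1 low cells against negative cells gave 43 lower and 8 higher of the 78 and 25 lower and 12 higher of the 71, beside 19.1% lower and 13.9% higher of all. Among the larger rises the direction turned in this sort. The 12 measured transcripts with a rise of at least 2 log2 units had a median difference of 0.23 in PIWI-1 high and 2.72 in PIWI-1 low against negative cells, where all those called higher had -2.32 and -1.29.

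A larger share of both sets than of all transcripts was called higher in X2 than in Xins cells. Higher levels in X2 than in Xins cells were found for 8 of 83 transcripts called higher (9.64%) and for 15 of 81 called lower (18.5%), beside 1.63% of all. Without 48 hr replicate 5 these were 12 of 149 (8.05%) and 9 of 110 (8.18%). Lower levels in X2 cells were found for 28 (33.7%) and 23 (28.4%), beside 18.4% of all, and without replicate 5 for 48 of 149 and 33 of 110. Irradiation changed few of them in number. Of 108 transcripts called higher 2 were higher (1.85%) and 0 lower in irradiated worms. Of 102 called lower 3 were higher (2.94%) and 2 lower (1.96%), beside 0.163% higher and 1.74% lower of all transcripts. At an unadjusted p under 0.05 by limma, 40 were higher and 20 lower of the 108, and 43 and 9 of the 102. Over all 19601 transcripts measured in both, 3614 were higher and 4809 lower at that limit.

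**Figure D5:**
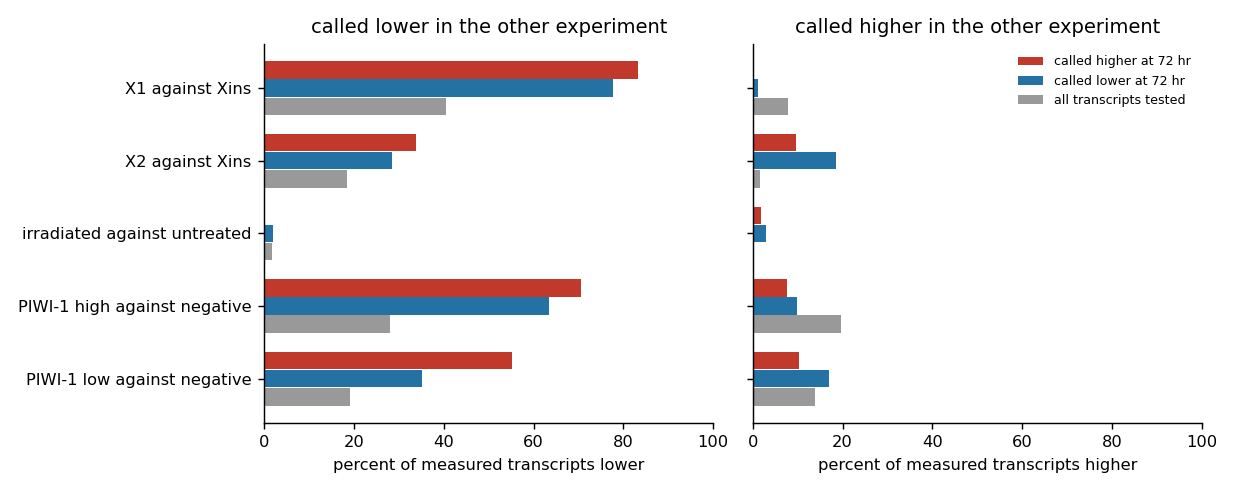
Percent of the measured transcripts that were called lower (left) or higher (right) in each comparison of sorted cells or whole worms, for the transcripts called higher at 72 hr (red), called lower at 72 hr (blue) and all transcripts tested (grey). In X1 against Xins cells 83.1% of the red, 77.8% of the blue and 40.4% of the grey set were lower.

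The course placed the 48 hr libraries at an extreme for many of these transcripts. Over the means of the 17 times, 54 of the 110 transcripts called higher had their lowest mean at 48 hr. Of the 123 called lower, 52 had their highest there. Calling by the 48 hr values favours such an extreme. The same counts over all transcripts tested were not taken, so no excess can be read from the 54 and 52. The choice of transcripts with a large difference also favours a mean in between at another time, and the 60 hr mean averages libraries at 2 levels. It lay between the 48 and 72 hr means in 107 of the 110 and 119 of the 123, beside 53.2% of all tested transcripts with a higher and 36.3% of those with a lower mean at 72 hr. The 14 day mean was nearer to 72 hr than to 48 hr in 101 of the 110 and 111 of the 123, beside 65.0% and 36.9%. The 0 hr mean was nearer to 72 hr in 65 of the 110 (59.1%) and 85 of the 123 (69.1%), beside 32.7% and 51.7%. The share of 59.1% fell to 37.8% with a pseudocount of 0.1 and to 32.9% without 48 hr replicate 2.

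The transcripts whose groups did not overlap were picked by the same 48 and 72 hr values, so their course is given as a description and its difference from that of the others was not tested. Their 0 hr mean was nearer to 72 hr in 20 of 57 called higher and 13 of 39 called lower. The median level of the 57 was 6.18 FPKM at 0 hr, 6.77 at 48 hr, 18.97 at 72 hr and 21.2 at 14 days. That of the 39 was 23.2 FPKM at 0 hr, 34.5 at 48 hr, 11.3 at 72 hr and 7.97 at 14 days. In both sets the median at 72 hr was nearer to that at 14 days than to that at 0 hr.

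Within the 24 hr, few transcripts passed from 48 to 60 hr and more from 60 to 72 hr, mostly downward. The step from 48 to 60 hr gave 6 calls upward (0.0244%) and 0 downward by limma, with 350 lower at an unadjusted p under 0.05 and 0 with voom. The step from 60 to 72 hr gave 18 upward (0.0733%) and 188 downward (0.766%). Both steps share the 60 hr libraries, which stood at 2 levels in the sets above. The median difference of the 110 transcripts called higher over the whole day was 0.48 from 48 to 60 hr and 0.85 from 60 to 72 hr, and that of the 123 called lower was -0.60 and -0.997. The 188 depended on a few libraries: it was 423, 49, 369 and 6 without 60 hr replicates 1, 2, 3 and 6, and 109 and 33 without 72 hr replicates 1 and 3. The 18 became 100, 1, 92 and 1 without the same 60 hr libraries, and 6, 4 and 5 without 72 hr replicates 1, 3 and 5. The 6 became 26, 29 and 2 without 60 hr replicates 1, 3 and 6, and 3 and 0 without 48 hr replicates 1 and 4, and the 0 became 18 without 60 hr replicate 3. Replicate 6 at 60 hr held 21789 transcripts at 1 FPKM or more, where the other 3 held between 19433 and 19884, and the part of this in the counts was not tested.

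The day from 36 to 60 hr was measured in 8 other libraries. It had 247 called higher (1.01%) and 42 lower (0.171%). Of the transcripts called higher from 48 to 72 hr 12 were among the 247, which is 10.9% of the 110 and 4.86% of the 247. Of those called lower 9 were shared, 7.32% of the 123 and 21.4% of the 42. The 247 became 403 and 67 without 60 hr replicates 1 and 6, and the 42 became 65, 26, 83 and 22 without 60 hr replicates 1, 2, 3 and 6. SMED30032293 and SMED30023924 rose over both days, by 3.97 and 3.43 log2 units from 36 to 60 hr (limma, adjusted p = 1.08e-10 and 4.4e-09), and the difference between the days did not pass for either (limma, adjusted p = 0.509 and 0.744).

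Tested directly, 74 transcripts changed more upward from 48 to 72 hr than from 36 to 60 hr (0.301%) and 248 more downward (1.01%). Of the 74, 27 were called higher from 48 to 72 hr and 0 from 36 to 60 hr, with median differences of 0.88 and -0.50. Of the 248, only 7 were called lower from 48 to 72 hr, while 145 were called higher from 36 to 60 hr and 130 lower from 60 to 72 hr. The 248 were thus mostly transcripts with a high mean at 60 hr. Leaving out 1 library moved the 74 by over 1.5 times for 14 of the 16 libraries, all but 72 hr replicates 2 and 3. It became 27, 21, 48 and 192 without 48 hr replicates 1, 2, 4 and 5, 42 and 46 without 72 hr replicates 1 and 5, 8, 120, 140 and 28 without 36 hr replicates 2, 3, 4 and 6, and 202, 4, 201 and 1 without 60 hr replicates 1, 2, 3 and 6. The 248 moved so for 10 of the 16. It became 81 and 161 without 48 hr replicates 1 and 4, 144 and 120 without 72 hr replicates 1 and 3, 36 and 99 without 36 hr replicates 2 and 6, and 529, 45, 435 and 5 without 60 hr replicates 1, 2, 3 and 6. Neither count can be read apart from the libraries of 36, 48 and 60 hr that stood at different levels.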

How the data were processed

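The authors deposited 3 tables of FPKM values, with 1 row for each of 36035 transcripts and 1 column for each library. RNA was polyA selected and libraries were made with a TruSeq kit, per the labels' protocols. Of the tools used upstream, the submitters' processing notes list Bowtie2 2.2.9 and edgeR and give neither a role. The reference, the counting method and its use of strand are not given in the sources used here, so reads shared by near-identical or overlapping transcripts could not be assessed.

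FPKM values are not counts, so limma 3.58.1 with a trend (R 4.3.3) was fitted to log2(FPKM + 1), which understates changes of low transcripts. All 68 time-course libraries entered 1 fit with a term per time (51 residual degrees of freedom), after keeping the 24546 transcripts with at least 1 FPKM in 4 libraries. Calls needed a log2 difference of 1 or more in size beside a Benjamini-Hochberg adjusted p under 0.05. Differences between library measures were tested with two-sided exact permutation tests (scipy 1.17.1).

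Lists came from the same kind of fit to the sorted cells and the whole worms, with at least 1 FPKM in 3 libraries (X gates, whole worms) or 4 (PIWI-1 sort). Whole reads were recovered from the FPKM values of 35225 transcripts, with 100% of their values whole within 0.05 of a read, and served for depth and limma voom. The fit was tested on simulated data.

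Named transcripts were the first 2 in each direction by size among those called, with at least 5 FPKM at the higher time and no overlap. The transcripts, lists and alternatives were chosen with earlier results of these data known. The fits without 48 hr replicate 5 were added after it was seen to stand apart.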

Additional observations from a re-analysis of the deposited data

Results flagged for a closer look

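In 6 sets of 4 libraries the highest or lowest value lay far from the other 3, with a gap to the nearest of them above the critical share of the whole range in Dixon's test. Chance gives such a gap in about 1 of 20 sets. How many sets were looked at is not given here, so the 6 cannot be set against this share. Nor are the 6 a full list: at 24 hr SMED30003738 was at 705 FPKM in replicate 6 and at most 93.4 FPKM in the others. The share of the range was 0.992 and 0.969 at 48 hr for the 2 transcripts with the largest rise without 48 hr replicate 5, both high in that replicate. These 2 came to the front because replicate 5 stood at the 72 hr level, so their gap follows from how they were chosen and the share given by chance does not apply to them. It was 0.933 at 48 hr for the percent of FPKM in the transcripts called higher, also a set chosen on these libraries, which was 1.47% in replicate 5 and at most 0.309% in the other 3. At 24 hr it was 0.938 for the median level of the 69 transcripts low in 48 hr replicate 5, where 24 hr replicate 6 was the high library. It was 0.933 at 48 hr for the PIWI-1 low list, at 0.16 log2 units in replicate 4 and at most 0.01 in the others. At 72 hr it was 0.837 for SMED30003738, at 78.0 FPKM in replicate 2 and at most 34.5 FPKM in the others.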

How the results depend on the processing

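Leaving out each library in turn gave between 70 and 209 transcripts called higher and between 67 and 204 called lower at 72 hr against 48 hr, the top of both ranges being the fit without 48 hr replicate 5. The ranges were 0 to 29 higher and 0 to 18 lower for 60 against 48 hr, 1 to 100 and 6 to 423 for 72 against 60 hr, and 67 to 403 and 22 to 83 for 60 against 36 hr. They were 1 to 202 and 5 to 529 for the difference between the 2 days. The list medians ranged from 0.10 to 0.17 (X1), -0.87 to -0.35 (X2) and 0.14 to 0.18 (PIWI-1 negative). For the transcripts called higher, the median difference ranged from -2.05 to -1.76 in X1 against Xins, -0.82 to -0.43 in X2 against Xins, -0.043 to 0.11 in irradiated against untreated worms, and -2.27 to -1.77 in PIWI-1 high against negative cells. For those called lower, the last was -2.01 to -1.32. The share of transcripts called higher with the 0 hr mean nearer to 72 hr ranged from 32.9% to 66.0%. The difference in transcripts at 1 FPKM or more, 240.2 with all libraries, ranged from -41.2 to 572 and turned to -41.2 without 48 hr replicate 2 and -6.17 without 72 hr replicate 5. Other values moved by less than the spread between libraries but by over 1.5 times: the list medians of -0.32 to -0.0351 (irradiation-raised), 0.065 to 0.14 (irradiation-lowered), 0.0833 to 0.15 (PIWI-1 high) and -0.0422 to 0.0261 (PIWI-1 low), and, for transcripts called lower, the medians of -0.69 to -0.0213 in X2 against Xins and 0.0557 to 0.23 in irradiated against untreated worms. The difference in the share of the 10 most abundant transcripts ranged from 0.334 to 1.47 percentage points, with no exact permutation p reaching the threshold.

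With a pseudocount of 0.1, 325 transcripts were higher at 72 than at 48 hr, 38 higher at 72 than at 60 hr, 755 higher and 64 lower at 60 than at 36 hr, and 121 changed more upward over the later day. The same setting gave a PIWI-1 negative list median of 0.20, medians of -1.51 (X1 against Xins) and -1.80 (PIWI-1 high against negative) for transcripts called higher and -1.49 (PIWI-1 high against negative) for those called lower, and a 0 hr share of 37.8%. The 8 libraries alone gave 45 higher and 29 lower, and the same without 48 hr replicate 5 gave 220 and 210. With no size threshold the counts were 2264 and 599. A filter of 1 FPKM in 4 of the 8 libraries gave 3 higher for 60 against 48 hr, 125 lower for 72 against 60 hr and 146 changed more downward over the later day. Limma voom on the recovered reads gave 304 higher at 72 than at 48 hr, 48 higher and 293 lower at 72 than at 60 hr, 559 higher at 60 than at 36 hr, and 97 changed more downward over the later day. Median-ratio scaling gave 2 higher for 60 against 48 hr and list medians of 0.0696 (X1), 0.0464 (Xins), -0.0694 (PIWI-1 low) and 0.10 (PIWI-1 negative). Lists called at a log2 difference of at least 2 had medians of -0.47 (irradiation-raised) and 0.11 (PIWI-1 low). Transcripts called at a log2 difference of at least 2 had medians of -6.60 (X1 against Xins), -2.80 (X2 against Xins), 0.23 (PIWI-1 high against negative) and 2.72 (PIWI-1 low against negative) when higher at 72 hr, and -1.28 and -0.18 in the PIWI-1 comparisons when lower. For the transcripts higher at 72 hr, both PIWI-1 medians thus turned from below to above 0. The cause of these changes was not tested.

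Replicate numbers 1, 2 and 5 occur at both times, but same-numbered libraries correlated by only 0.06 to 0.10 in their deviations from the group means, and 3 of 6 libraries correlated best with their own number, so the numbers were not taken as pairs. With the number as a replicate block, the 68 libraries gave 100 higher and 115 lower, 5 higher for 72 against 60 hr, and a median of -1.85 for transcripts called higher in X1 against Xins cells. The 6 libraries of the shared numbers gave 0 and 0 with a replicate block. Depth limited the low transcripts, of which a few reads decide the values, and with 4 libraries a group the exact tests could not go below 0.0286.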

Other observations

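One library of the series, titled unc_totalRNA and given with the PIWI-1 sort, was put in no group by the labels. In it the 41 transcripts high in 48 hr replicate 5 had a median of 198 FPKM and the 69 low in that replicate a median of 1.35 FPKM. Another 2 libraries of the time course came closest to 48 hr replicate 5 in the number of transcripts at least 2 log2 units from all others of their time: 36 hr replicate 6 had 62 above and 4 below, and 7 day replicate 3 had 0 above and 66 below.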
